A study of Mus musculus with 28 samples.

Results

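Tumors of mice that lack the interleukin-17 receptor chain Il17ra in hepatocytes were compared with tumors of floxed mice without Cre, all from animals on an alcohol diet. The 8 libraries (4 dHEP, 4 FF) were taken by their labels for genotype, tissue and diet, out of 28 liver libraries in the series. The 4 dHEP mice carried Cre under the albumin promoter (AlbCre) and floxed Il17ra alleles, and the 4 FF mice carried the floxed alleles alone. Every mouse was C57BL/6 and received the liver carcinogen diethylnitrosamine (DEN) at 25 mg/kg at 2 weeks of age, followed by 18 weeks of feeding. The sample labels call the diet HFD_alcohol, whereas the design text describes liquid ethanol feeding. Chow-fed mice of both genotypes (3 tumors each) and the non-tumor liver of the same 8 alcohol-fed animals serve to test where the genotype difference differs and to set levels beside those of the tumors; the chow tumors also entered the fit. Albumin-driven Cre acts in hepatocytes, and whether all other cells of a tumor keep the receptor was not tested. The labels give neither the sex of the mice, nor the time of day of collection, nor whether a library holds 1 nodule or several.

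IL-17RA is the chain shared by the receptors for IL-17A, IL-17F and related cytokines. It signals through the adaptor Act1 and TRAF6 to NF-kB and C/EBP factors, and in liver it induces neutrophil chemokines and acute phase proteins such as lipocalin 2. Hepatocytes secrete most plasma proteins and lean on the unfolded protein response, in which the sensors ATF6, IRE1 and PERK raise chaperones of the endoplasmic reticulum (ER) when folding falls behind.

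The tumor libraries were not alike within the dHEP group. Values are given throughout in CPM (reads of a gene per 1000000 reads) in the order dHEP-518, dHEP-520, dHEP-549, dHEP-550, followed by FF-503, FF-523, FF-581, FF-595. Glypican 3 (Gpc3), a surface proteoglycan of liver tumors, stood at 229, 142, 0.473 and 1.66 CPM in the dHEP tumors and at 230.3, 172, 94.4 and 181 CPM in the FF tumors. Alpha-fetoprotein (Afp), the fetal albumin relative, stood at 129, 326, 5.47 and 50.6 CPM in the dHEP tumors and at 221, 133, 143 and 502 CPM in the FF tumors. For Gpc3, dHEP-549 thus lay below and dHEP-550 within the range of the non-tumor liver of dHEP mice (0.98 to 2.69 CPM), while dHEP-518 and dHEP-520 lay among the FF tumors. Across the 16 alcohol-diet libraries, the first principal component (51.1% of variance) separated tumors from non-tumor liver except for dHEP-549, which lay between them at -1.21, and the second (14.2%) set dHEP-550 apart at 73.5. Summed hepatocyte markers ranged from 116265 to 186365 CPM in the dHEP tumors and from 135059 to 164509 CPM in the FF tumors. Summed adipocyte markers ran from 7.09 to 90.1 CPM in dHEP and 33.7 to 60.5 CPM in FF tumors. Pancreatic acinar markers summed to 7.23 to 33.4 CPM in dHEP and 16.7 to 36.5 CPM in FF tumors, and neutrophil markers to 2.59 to 15.7 CPM in dHEP and 5.16 to 17.98 CPM in FF tumors. Of these 3 lists, Adipoq, Prss1 and Ly6g were at 0 in all 8 tumors. Total reads, estimated from the smallest CPM step, were 11.1 to 15.1 M per tumor.

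**Figure D1:**
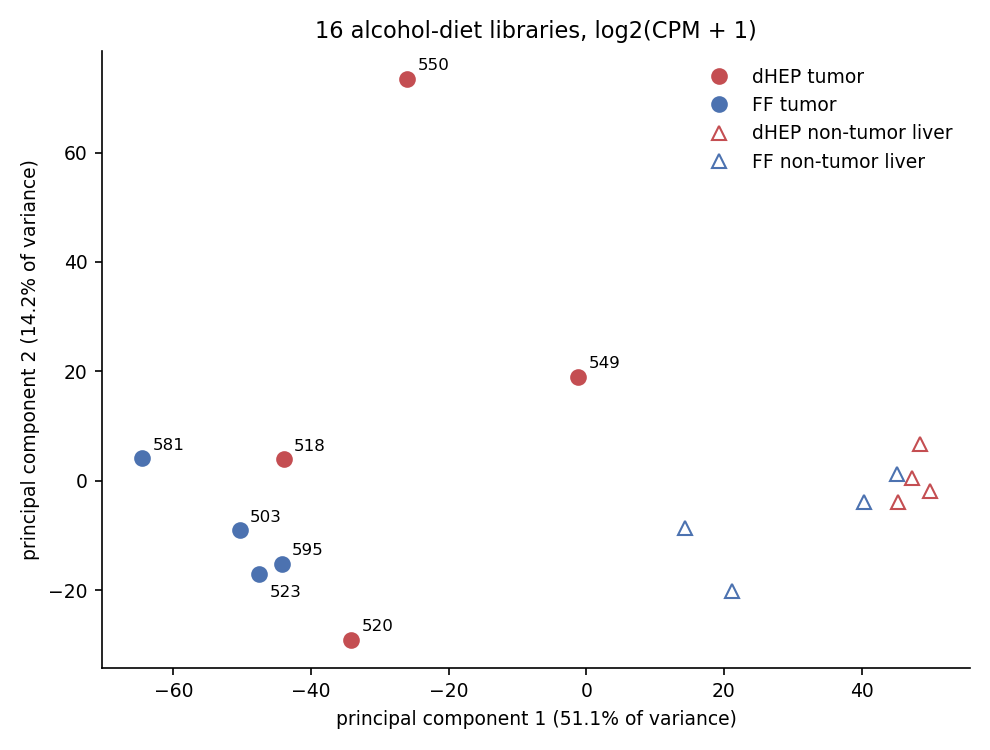
Principal components of log2(CPM + 1) in the 16 alcohol-diet libraries: each point is a library, circles are tumors with their animal number, open triangles non-tumor liver, red dHEP and blue FF. The 4 FF tumors and dHEP-518 and dHEP-520 lie on the left, dHEP-549 lies near 0 on the first axis, and dHEP-550 stands alone at 73.5 on the second.

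Il17ra itself was lower in the dHEP tumors, with 1 library inside the FF range. It stood at 15.5, 28.2, 8.38 and 10.7 CPM in the dHEP tumors and at 33.9, 31.1, 20.9 and 27.9 CPM in the FF tumors. Tumor dHEP-520 lay just above FF-595, and the other 3 dHEP tumors lay below all FF tumors (log2 fold change -0.94 ± 0.33 (SE), adjusted p = 0.729). In the non-tumor liver of the same animals Il17ra ranged from 9.23 to 12.99 CPM in dHEP mice and from 17.6 to 30.99 CPM in FF mice. CPM counts the whole gene and the labels do not say which exons are floxed. In a whole tumor, fewer cells of a type and less RNA per cell cannot be told apart, here and below. Il17rc, which pairs with Il17ra to bind IL-17A and IL-17F, averaged 20.96 ± 2.32 CPM in dHEP and 20.3 ± 4.12 CPM in FF tumors (SD, n = 4 each). None of the 6 tested receptor chains and adaptors other than Il17ra had an unadjusted p under 0.05, and 1 of the 8 listed genes was under the expression filter of 1 CPM in 3 libraries.

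Among genes known to be induced by IL-17, the neutrophil chemokine Cxcl1 was the 1 of 15 tested members (of 19 listed) with an unadjusted p under 0.05. Cxcl1 stood at 31.04, 44.6, 16.1 and 7.71 CPM in the dHEP tumors and at 41.7, 75.6, 49.6 and 76.4 CPM in the FF tumors. Only dHEP-520 reached into the FF range (log2 fold change -1.47 ± 0.44 (SE), adjusted p = 0.668). Steap4, an IL-17-responsive metalloreductase, stood at 234, 347, 172 and 89.4 CPM in dHEP and 311, 380.2, 154.9 and 404 CPM in FF tumors and overlapped (log2 fold change -0.64 ± 0.45 (SE), adjusted p = 0.897). The chemokine Ccl20 was at 0 in all 4 dHEP tumors, against 0.361, 0.586, 0.132 and 0.466 CPM in the FF tumors, which is a few reads per library (adjusted p = 0.967). The median log2 fold change of the 15 was -0.20, beside -0.018 over all tested genes. In non-tumor liver on alcohol 11 of 12 tested members were below 0, with a median of -0.88, beside -0.053 over all tested genes. There 3 were lower in dHEP at an unadjusted p under 0.05 (6.07% of all genes were) and 1 higher (2.44%). In chow tumors the median was -0.11, with 0 at that p.

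Across the transcriptome, no single gene separated the genotypes past correction for multiple tests. Limma tested 13205 genes and called 0 (0%) at an adjusted p under 0.05, with a smallest adjusted p of 0.573, and every gene described below had an adjusted p at or above that. Without adjustment, 833 genes (6.31%) had p under 0.05, of which 353 (2.67%) were higher and 480 (3.63%) lower in dHEP tumors. The 4 dHEP libraries lay above all 4 FF libraries for 195 genes (1.48%) and below them for 273 (2.07%). Log2 fold changes were above 0 for 6220 genes (47.1%). Counts in gene lists below are set beside these shares. The lists were chosen with earlier results of these data known. A count above its share may therefore be partly set by that choice and is no test of the list. In all, 53 lists were scored (39 of pathways and 14 of cell types), a clock list was added later, and not all are described. Leaving out dHEP-549 and dHEP-550, a choice made after seeing the data, left 291 genes with p under 0.05.

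**Figure D2:**
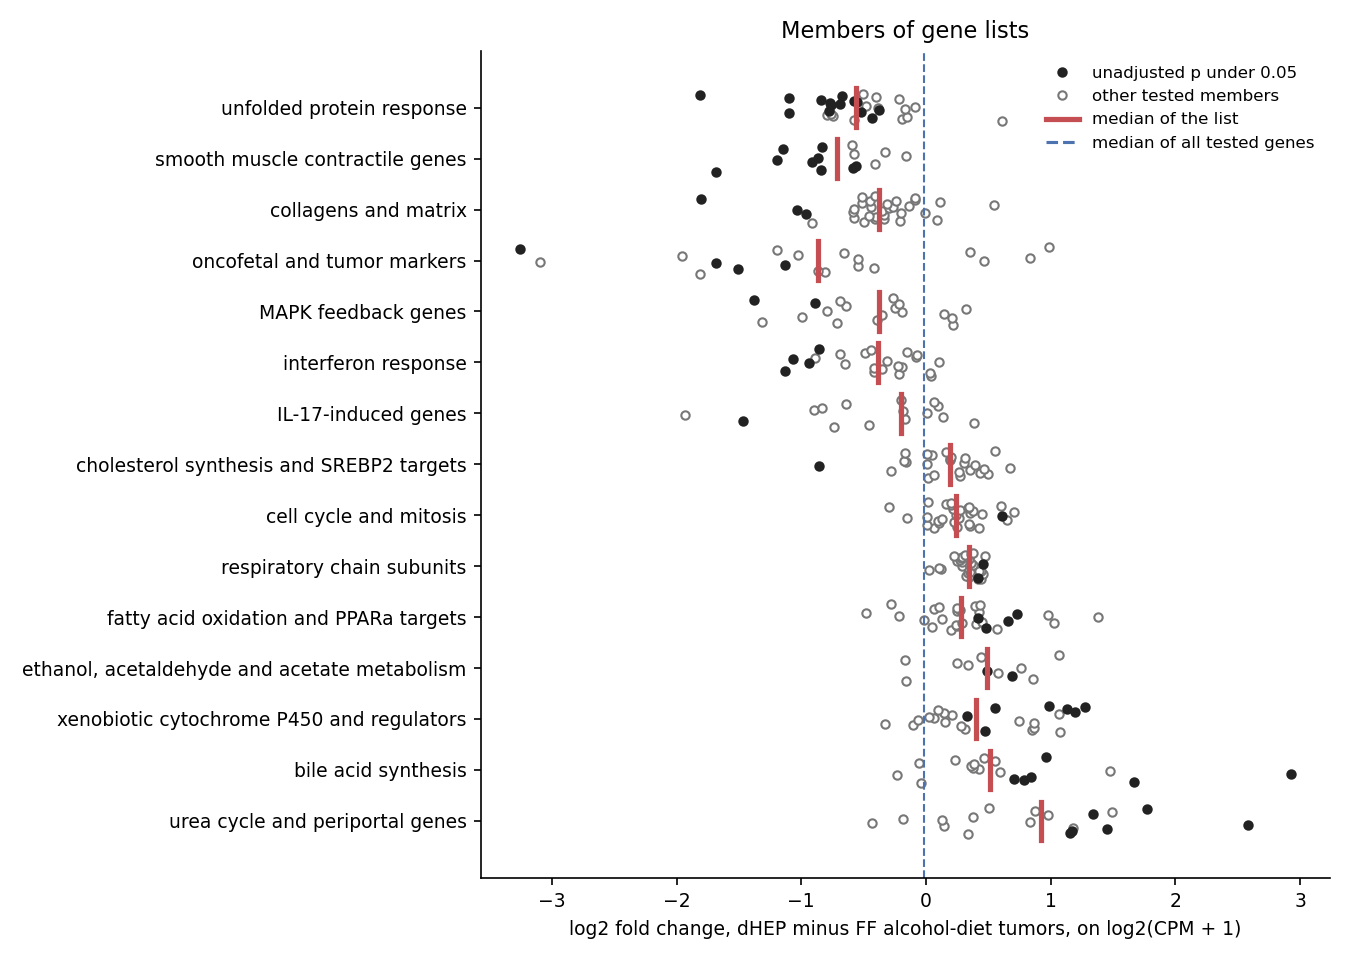
Log2 fold change (dHEP minus FF, on log2(CPM + 1)) of each tested member of 15 gene lists; filled points had an unadjusted p under 0.05, red bars are list medians and the dashed line is the median of all tested genes. Unfolded protein response and contractile genes lie to the left (medians -0.56 and -0.71), and respiratory chain, cytochrome P450, bile acid and periportal genes to the right (medians 0.34 to 0.93).

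Chaperones and folding enzymes of the ER were lower in the dHEP tumors as a group. Of 28 unfolded protein response genes, all tested, 27 had a log2 fold change below 0, 14 had an unadjusted p under 0.05 and all 14 were lower in dHEP (3.63% of all genes were), and 6 did not overlap (2.07%). The median was -0.56. Hspa5, the ER chaperone BiP that holds the sensors inactive, stood at 1178, 1078, 989.7 and 806 CPM in the dHEP tumors and 2207, 1779, 1060.3 and 1991 CPM in the FF tumors. The FF tumor FF-581 was the one that reached down to the dHEP values (log2 fold change -0.76 ± 0.25 (SE), adjusted p = 0.687). Pdia6, a protein disulfide isomerase, stood at 587, 414, 301 and 267 CPM in dHEP and 785, 669, 645 and 602 CPM in FF tumors. All 4 dHEP values lay below all FF values (log2 fold change -0.84 ± 0.24 (SE), adjusted p = 0.668). Dnajb9, an ER co-chaperone of Hspa5, stood at 50.6, 42.7, 78.5 and 44.8 CPM in dHEP and 74.95, 87.9, 78.6 and 130.4 CPM in FF tumors, where dHEP-549 exceeded FF-503 (log2 fold change -0.78 ± 0.21 (SE), adjusted p = 0.645).

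Promoters of part of this list share the ER stress response element (ERSE), to which ATF6 is known to bind together with NF-Y. The element was searched as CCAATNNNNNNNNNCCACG on both strands, from 250 bases before to 50 after the start of each RefSeq gene (GRCm38.p6). It was found in 9 of the 26 listed genes with a window (34.6%) and in 37 of 27025 genes overall (0.137%). The sequences below show each element in capitals with 10 bases to either side, read in the direction CCAAT to CCACG, and are shown because the list is the one with the most genes at p under 0.05 (14).
Calr, chr8:84847065-84847103, plus strand: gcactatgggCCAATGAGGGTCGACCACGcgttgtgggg
Canx, chr11:50325790-50325828, minus strand: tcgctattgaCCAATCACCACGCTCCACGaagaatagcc
Creld2, chr15:88819510-88819548, minus strand: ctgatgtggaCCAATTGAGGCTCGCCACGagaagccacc
Derl3, chr10:75893232-75893270, minus strand: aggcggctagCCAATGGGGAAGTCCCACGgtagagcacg
Dnajc3, chr14:118937817-118937855, plus strand: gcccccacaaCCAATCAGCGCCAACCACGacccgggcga
Hsp90b1 (first), chr10:86705628-86705666, minus strand: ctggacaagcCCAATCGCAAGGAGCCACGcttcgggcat
Hsp90b1 (second), chr10:86705523-86705561, plus strand: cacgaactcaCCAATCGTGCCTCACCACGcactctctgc
Hspa5, chr2:34772015-34772053, plus strand: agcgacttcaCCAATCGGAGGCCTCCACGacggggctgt
Pdia6, chr12:17266481-17266519, plus strand: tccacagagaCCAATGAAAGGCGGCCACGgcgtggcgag
Syvn1, chr19:6046522-6046560, plus strand: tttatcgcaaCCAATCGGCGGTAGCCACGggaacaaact
The elements of Hspa5 and Pdia6 end 47 and 80 bases before the annotated start, and Hsp90b1 has 2. All 9 genes had log2 fold changes below 0, with a median of -0.672. As 27 of the 28 listed genes were below 0, that direction was largely set by the choice of list and cannot speak to the element. Of 28 genes that hold the element outside the list, 10 were tested, 6 with a fold change below 0 and 4 above, with a median of -0.0986. The whole Hspa5 window, chr2:34771840-34772139 on the plus strand, with the element in capitals, also holds CCAAT letters outside it, in lower case:
Hspa5 promoter: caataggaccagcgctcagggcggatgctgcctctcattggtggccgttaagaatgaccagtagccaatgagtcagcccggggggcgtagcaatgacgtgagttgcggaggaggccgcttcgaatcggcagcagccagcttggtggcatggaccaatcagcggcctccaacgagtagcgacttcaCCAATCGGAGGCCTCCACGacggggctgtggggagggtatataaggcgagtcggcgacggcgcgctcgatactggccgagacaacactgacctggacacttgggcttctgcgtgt
A match is a description of letters and not a site of binding.

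The rest of the list showed how far the pattern reached. Hyou1, a large ER chaperone, stood at 254, 247, 319.9 and 222 CPM in dHEP and 524, 402, 283 and 507 CPM in FF tumors, again with FF-581 inside the dHEP range (log2 fold change -0.69 ± 0.20 (SE), adjusted p = 0.668). Manf, a secreted protein induced by ER stress, followed the same order at 97.2, 77.4, 101 and 63.4 CPM in dHEP and 179, 145, 93.2 and 170.3 CPM in FF tumors (log2 fold change -0.77 ± 0.23 (SE), adjusted p = 0.668). FF-581 was the lowest FF tumor for both. Sdf2l1, a partner of Hspa5, averaged 23.1 ± 8.25 CPM in dHEP and 49.97 ± 16.7 CPM in FF tumors (SD, n = 4 each) without overlap. The calcium-binding chaperone Calr averaged 586 ± 31.7 CPM in dHEP and 805 ± 161 CPM in FF tumors, also without overlap. The other 3 members without overlap were the co-chaperone Dnajb11 (-0.52), the disulfide isomerase Pdia3 (-0.55) and Sel1l (-0.40), the adaptor of ER-associated degradation, given here as log2 fold changes. On the PERK branch the genes named here were all below 0 but differed in size. Trib3, a pseudokinase, had a log2 fold change of -1.81 (adjusted p = 0.729). Its inducer Ddit3 stood at -0.76 (adjusted p = 0.933) and Atf4 at -0.19 (adjusted p = 0.96). Xbp1, the IRE1 target, stood at -0.50 (adjusted p = 0.788), with its lowest values in dHEP-549 and dHEP-550. Leaving out 1 tumor left 8 (without FF-503) to 19 (without dHEP-520) members with p under 0.05, with 9 left without FF-523 and without dHEP-550. Leaving out dHEP-549 and dHEP-550 together left 5, with 24 of 28 below 0.

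The 15 lower and 15 higher genes named here and below were those of smallest p among genes whose groups did not overlap. They also had at least 5 CPM in the higher group, and predicted genes and pseudogenes were left out. Their lack of overlap was thus set by the rule and is no separate result. Among the 15 lower genes, 2 serve the same compartment: Rrbp1, which holds ribosomes on the ER, and Kdelr3, which returns escaped ER chaperones. Rrbp1 stood at 401, 369, 353 and 342 CPM in dHEP and 535, 610.1, 586 and 594 CPM in FF tumors, a gap wider than the range within either group (log2 fold change -0.67 ± 0.15 (SE), adjusted p = 0.645). Kdelr3 stood at 3.48, 5.75, 1.62 and 1.46 CPM in dHEP and 11.2, 22.6, 8.86 and 27.2 CPM in FF tumors and did not overlap (log2 fold change -2.17 ± 0.55 (SE), adjusted p = 0.645).

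Contractile genes of smooth muscle were lower in the dHEP tumors, led by the gene with the smallest p of the comparison. Acta2, smooth muscle alpha-actin (ENSMUSG00000035783, minus strand of GRCm38 chr19:34241090-34255590), stood at 8.09, 11.02, 5.44 and 11.5 CPM in the dHEP tumors and 34.1, 22.9, 44.9 and 23.02 CPM in the FF tumors. All 4 dHEP values lay below the lowest FF value (log2 fold change -1.68 ± 0.30 (SE), adjusted p = 0.573). Tagln (transgelin, an actin-binding protein) stood at 7.29, 13.3, 7.8 and 8.46 CPM in dHEP and 24.5, 19.7, 23.9 and 17.2 CPM in FF tumors, without overlap (log2 fold change -1.15 ± 0.25 (SE), adjusted p = 0.645). Myh11, the smooth muscle myosin heavy chain, stood at 4.49, 6.02, 4.09 and 6.84 CPM in dHEP and 13.5, 9.83, 19.8 and 11.9 CPM in FF tumors (log2 fold change -1.19 ± 0.28 (SE), adjusted p = 0.645). Vascular smooth muscle makes all 3, and activated stellate cells make Acta2 and Tagln too.

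Of 14 contractile genes tested out of 16 listed, all had a log2 fold change below 0, 9 had an unadjusted p under 0.05 (3.63% of all genes were lower at that p) and 5 did not overlap. The median was -0.71. Tpm1, a tropomyosin, stood at 71.3, 127, 52.8 and 96.4 CPM in dHEP and 164.97, 144, 153 and 129 CPM in FF tumors, with dHEP-520 just below FF-595 (log2 fold change -0.83 ± 0.26 (SE), adjusted p = 0.674). Actg2, the enteric smooth muscle actin, was close to 0 but did not overlap, at 0.497, 0.216, 0.203 and 0.865 CPM in the dHEP tumors and 1.44, 1.1, 2.25 and 1.53 CPM in the FF tumors. Mylk, the myosin light chain kinase, had a log2 fold change of -0.16 (adjusted p = 0.989). The summed vascular smooth muscle and pericyte markers (11 genes, most of them also in the contractile list) ran from 128 to 265 CPM in dHEP and from 191 to 249 CPM in FF tumors, overlapping through dHEP-520. Of the 10 of these markers tested, 9 had a log2 fold change below 0, 6 had p under 0.05, all lower in dHEP, and 4 did not overlap, with a median of -0.85. Their part in the contractile result was not tested. With 1 tumor left out, 5 (without FF-581 or dHEP-549) to 11 (without dHEP-520) contractile members had p under 0.05, and 6 did without dHEP-549 and dHEP-550.

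Matrix genes leaned the same way with less separation. Of 32 collagen and matrix genes, 29 had a log2 fold change below 0 and 3 had p under 0.05, all lower in dHEP, with a median of -0.38. Fbln2, a fibulin of basement membranes and elastic fibres, stood at 3.81, 6.18, 3.85 and 2.99 CPM in dHEP and 8.93, 10.5, 11.6 and 7.12 CPM in FF tumors, without overlap (log2 fold change -1.03 ± 0.32 (SE), adjusted p = 0.687). Thrombospondin 1 (Thbs1), an activator of latent TGF-beta, stood at 19.9, 27.03, 2.97 and 16.8 CPM in dHEP and 101, 29.9, 45.03 and 41.2 CPM in FF tumors, without overlap and with FF-503 the highest (log2 fold change -1.80 ± 0.67 (SE), adjusted p = 0.75). Col3a1, a fibrillar collagen, stood at 57.3, 260.2, 93.7 and 116 CPM in dHEP and 201, 177, 135 and 169.9 CPM in FF tumors. Tumor dHEP-520 held more Col3a1 than any FF tumor and the other 3 dHEP tumors held less than any, so the groups overlapped (log2 fold change -0.58 ± 0.42 (SE), adjusted p = 0.903). Tgfb3, a TGF-beta ligand, was among the 15 lower genes of smallest p, at 1.41, 2.23, 0.675 and 1.66 CPM in dHEP and 5.5, 3.01, 9.19 and 4.79 CPM in FF tumors (log2 fold change -1.37 ± 0.32 (SE), adjusted p = 0.645). Stellate cell and fibroblast markers gave no member with p under 0.05 and a median of -0.38 over 10 genes. The matrix count was 1 without FF-503 or dHEP-549, 7 without dHEP-520 and 0 without dHEP-549 and dHEP-550. The lean was not particular to tumors. In non-tumor liver on alcohol 28 of 30 matrix genes were below 0, with a median of -0.31. There 7 were lower in dHEP at p under 0.05 (6.07% of all genes were) and 0 higher. In chow tumors 14 were below 0 and 18 above, with 0 at that p and a median of 0.058.

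**Figure D3:**
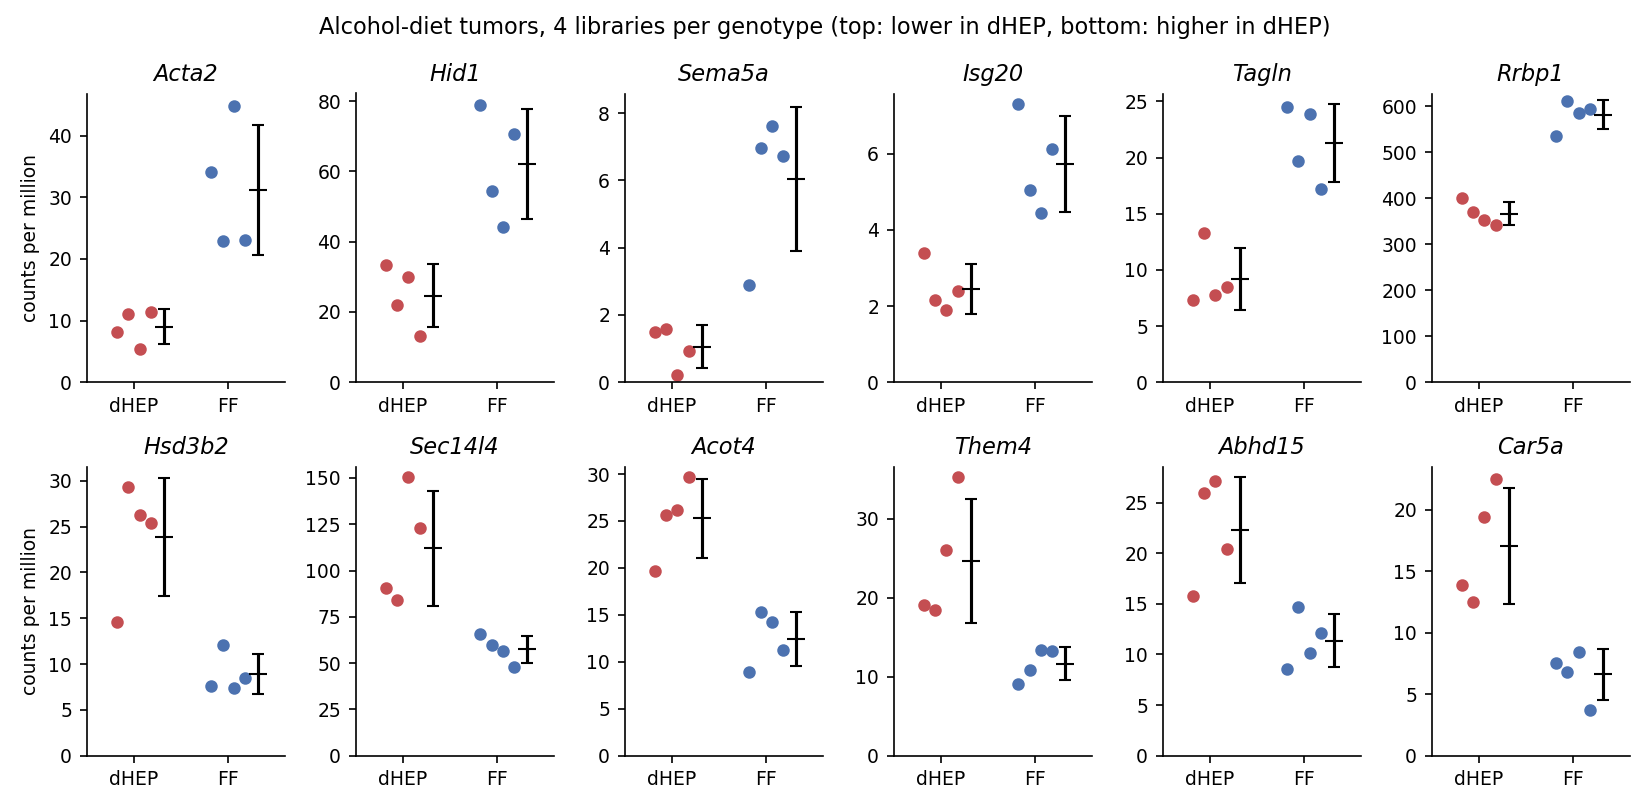
CPM of the 6 lower (top) and 6 higher (bottom) genes of smallest p whose groups do not overlap; each point is a tumor in order of animal number, dHEP left and FF right, with mean and SD (n = 4). Acta2 lies at 5.44 to 11.5 CPM in dHEP and 22.9 to 44.9 CPM in FF tumors, and Hsd3b2 at 14.5 to 29.3 CPM in dHEP and 7.38 to 12.1 CPM in FF tumors.

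The other genes among the 15 lower ones served varied functions. Hid1, needed for secretory granules, stood at 33.4, 22, 29.9 and 13.2 CPM in dHEP and 78.9, 54.5, 44.2 and 70.8 CPM in FF tumors (log2 fold change -1.34 ± 0.26 (SE), adjusted p = 0.645). Sema5a, a guidance semaphorin, stood at 1.49, 1.58, 0.203 and 0.931 CPM in dHEP and 2.89, 6.96, 7.6 and 6.73 CPM in FF tumors (log2 fold change -1.78 ± 0.36 (SE), adjusted p = 0.645). Isg20, an interferon-inducible exonuclease, averaged 2.46 ± 0.656 CPM in dHEP and 5.73 ± 1.26 CPM in FF tumors (SD, n = 4 each). Krt20, an epithelial keratin, stood at 8.19, 0.647, 0 and 0.266 CPM in dHEP and 23.1, 38.1, 19.9 and 9.06 CPM in FF tumors, with dHEP-518 just below FF-595 (log2 fold change -3.33 ± 0.83 (SE), adjusted p = 0.645). Slc41a2, a magnesium transporter, averaged 52.5 ± 13.8 CPM in dHEP and 106 ± 10.6 CPM in FF tumors. Cdr2, Ccdc149 and Glt8d1 completed the group, with log2 fold changes of -1.57, -1.002 and -0.62.

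The 15 higher genes, all without overlap by the same rule, included Hsd3b2, a steroid dehydrogenase (ENSMUSG00000063730, minus strand of GRCm38 chr3:98709255-98724543). It stood at 14.5, 29.3, 26.3 and 25.4 CPM in dHEP and 7.56, 12.1, 7.38 and 8.49 CPM in FF tumors (log2 fold change 1.31 ± 0.24 (SE), adjusted p = 0.573). It lies among close paralogs, between which reads could be divided. Por, the reductase that supplies electrons to all microsomal P450 enzymes, stood at 163, 195, 216 and 280.4 CPM in dHEP and 91.4, 135, 85.6 and 115 CPM in FF tumors, without overlap. Sord, sorbitol dehydrogenase of the polyol pathway, stood at 669, 1028, 1060.4 and 1087 CPM in dHEP and 348, 483, 490.0 and 642 CPM in FF tumors; dHEP-518 was the lowest dHEP tumor and lay just above FF-595 (log2 fold change 0.98 ± 0.24 (SE), adjusted p = 0.645). Car5a, the mitochondrial carbonic anhydrase that supplies bicarbonate to the urea cycle, stood at 13.9, 12.5, 19.4 and 22.5 CPM in dHEP and 7.5, 6.85, 8.44 and 3.7 CPM in FF tumors (log2 fold change 1.26 ± 0.29 (SE), adjusted p = 0.645). Afmid, which makes kynurenine from tryptophan breakdown, averaged 44.3 ± 16.5 CPM in dHEP and 17.6 ± 3.03 CPM in FF tumors (SD, n = 4 each). Lipg, endothelial lipase, stood at 9.02, 16.8, 41.3 and 10.04 CPM in dHEP and 2.89, 6.67, 1.98 and 7.06 CPM in FF tumors, with dHEP-549 far above the rest (log2 fold change 1.72 ± 0.44 (SE), adjusted p = 0.645). The acyl-CoA thioesterases Acot4 and Them4, the lipid-binding Sec14l4, Abhd15, the lysosomal transporter Slc46a3, the peroxisomal oxidase Pipox and Lonrf1 had log2 fold changes from 0.73 for Pipox to 1.05 for Slc46a3.

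Drug-metabolizing P450 genes and their regulators lay above the FF tumors in part. Of 24, 7 had an unadjusted p under 0.05 and all 7 were higher in dHEP (2.67% of all genes were); 21 had log2 fold changes above 0 (47.1% of all genes did) and the median was 0.40. Cyp3a25 stood at 119, 196, 237 and 134 CPM in dHEP and 98.4, 103, 43.9 and 69.7 CPM in FF tumors, without overlap (log2 fold change 1.13 ± 0.39 (SE), adjusted p = 0.71); it too has close paralogs. Cyb5a, cytochrome b5, the second electron donor, stood at 385, 556, 366 and 449 CPM in dHEP and 301, 315, 289 and 341 CPM in FF tumors, also without overlap (log2 fold change 0.48 ± 0.19 (SE), adjusted p = 0.782). The nuclear receptors that induce these enzymes overlapped: Nr1i3 (CAR) stood at 73.01, 154, 46.9 and 41.8 CPM in dHEP and 25.2, 65.7, 10.97 and 31.4 CPM in FF tumors (log2 fold change 1.28 ± 0.52 (SE), adjusted p = 0.782). The other members with p under 0.05 beside Por were Cyp3a11, Cyp2d22 and the pregnane X receptor Nr1i2, with log2 fold changes of 1.19, 0.33 and 0.56. FF-581 held the lowest CPM of Cyp3a25, Nr1i3 and Cyp2e1 of the 8 tumors, and without it 2 members had p under 0.05, 14 of 24 were above 0 and the median was 0.123. The count was also 2 without dHEP-520, and 3 without dHEP-549 and dHEP-550. In non-tumor liver on alcohol 7 of 24 were higher in dHEP at p under 0.05 (2.44% of all genes were) and 0 lower, with a median of 0.28. In chow tumors 0 were higher and 3 lower at that p, with a median of -0.20.

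Bile acid synthesis genes leaned higher in the dHEP tumors. Of 18 genes, 6 had p under 0.05, all higher in dHEP, 15 were above 0 and the median was 0.51. Slc27a5, which activates bile acids with coenzyme A before conjugation, stood at 338, 249.9, 553 and 501 CPM in dHEP and 190.1, 219.8, 179 and 214 CPM in FF tumors, without overlap. Amacr, the racemase of side-chain shortening, stood at 64.3, 86.3, 84.2 and 147 CPM in dHEP and 51.8, 57.8, 52.2 and 48.2 CPM in FF tumors, without overlap (log2 fold change 0.79 ± 0.22 (SE), adjusted p = 0.645). Cyp7a1, the rate-limiting enzyme, stood at 48.9, 109.8, 118 and 298 CPM in dHEP and 19.9, 75.7, 1.26 and 15.1 CPM in FF tumors; FF-523 lay within the dHEP range and FF-581 was lowest (log2 fold change 2.93 ± 1.001 (SE), adjusted p = 0.706). Akr1d1, the steroid 5-beta-reductase, was highest in dHEP-549 and dHEP-550, at 40.1, 25.6, 117 and 103 CPM in dHEP and 19.6, 30.8, 21.6 and 7.92 CPM in FF tumors (log2 fold change 1.67 ± 0.53 (SE), adjusted p = 0.687). The conjugating enzyme Baat and the mitochondrial sterol hydroxylase Cyp27a1 were the others at that p, with log2 fold changes of 0.71 and 0.84. Without dHEP-549 and dHEP-550, 2 members had p under 0.05. The bile acid uptake carrier Slc10a1 stood at 71.6, 105, 326 and 131 CPM in dHEP and 57.7, 53, 9.92 and 71.4 CPM in FF tumors, with dHEP-518 just above FF-595 and FF-581 far below the others (log2 fold change 1.76 ± 0.66 (SE), adjusted p = 0.754).

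Ethanol-handling and mitochondrial genes gave smaller counts. Adh1, the main alcohol dehydrogenase, stood at 1806, 2259, 2542 and 1984 CPM in dHEP and 994, 1332, 1343 and 1687 CPM in FF tumors, without overlap (log2 fold change 0.69 ± 0.23 (SE), adjusted p = 0.687). Of 11 genes for ethanol, acetaldehyde and acetate, 2 had p under 0.05, both higher in dHEP, and the median was 0.49. Cyp2e1, the ethanol-inducible P450, stood at 551, 1926, 967 and 1117 CPM in dHEP and 714, 1112, 83.6 and 886 CPM in FF tumors and overlapped (log2 fold change 1.07 ± 0.65 (SE), adjusted p = 0.855). Fatty acid oxidation gave 4 of 28 members with p under 0.05, all higher in dHEP, among them Acsl1, which activates long-chain fatty acids, at 809, 833, 957 and 840.4 CPM in dHEP and 404, 548, 555 and 708 CPM in FF tumors, without overlap (log2 fold change 0.66 ± 0.24 (SE), adjusted p = 0.742). That count was 1 without FF-503, 2 without dHEP-520 or dHEP-549 and 9 without dHEP-518. All 31 respiratory chain subunits had log2 fold changes above 0, with a median of 0.34, yet 2 had p under 0.05. The ATP synthase subunit Atp5c1 stood at 154, 164.1, 184 and 258 CPM in dHEP and 137, 139, 143 and 138 CPM in FF tumors (log2 fold change 0.42 ± 0.19 (SE), adjusted p = 0.782). Its highest value was in dHEP-550, and without dHEP-550 the median of the 31 was 0.171, and it was 0.0834 without dHEP-549 and dHEP-550. Without dHEP-518, the lowest dHEP tumor for Atp5c1, 19 of the 31 had p under 0.05.

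Urea cycle and other periportal genes were high mainly in dHEP-549 and dHEP-550. Of 18 genes, 16 were above 0 and 6 had p under 0.05, all higher in dHEP, with a median of 0.93. Cps1, the entry enzyme of the urea cycle, stood at 2287, 1673, 5515 and 13454 CPM in dHEP and 1827, 1343, 1994 and 2204 CPM in FF tumors. Tumor dHEP-550 exceeded every non-tumor liver on alcohol (up to 5618 CPM in dHEP and 5032 CPM in FF mice), while dHEP-520 lay within and dHEP-518 just above the FF tumors (log2 fold change 1.18 ± 0.59 (SE), adjusted p = 0.797). Ass1, which joins citrulline and aspartate, stood at 708, 409, 1349 and 4739.8 CPM in dHEP and 519, 326, 548 and 358 CPM in FF tumors (log2 fold change 1.45 ± 0.62 (SE), adjusted p = 0.782). Arginase 1 (Arg1) and argininosuccinate lyase (Asl), the last steps of the cycle, had log2 fold changes of 1.16 (adjusted p = 0.782) and 1.17 (adjusted p = 0.727). Etnppl, a phosphoethanolamine lyase, was the 1 member without overlap, at 11.3, 12.4, 33.4 and 68.2 CPM in dHEP and 5.59, 5.28, 0.86 and 3 CPM in FF tumors (log2 fold change 2.58 ± 0.86 (SE), adjusted p = 0.687). Without dHEP-549 and dHEP-550, 0 members had p under 0.05 and the median was 0.176, and without any 1 of FF-523, FF-595, dHEP-549 or dHEP-550 the count was 2. Without dHEP-520 it was 11. The pericentral ornithine aminotransferase Oat stood at 74.5, 207, 72.5 and 1777 CPM in the dHEP tumors and 87.2, 158.3, 15.7 and 75.6 CPM in the FF tumors, highest in dHEP-550. Of 16 pericentral genes, 14 were above 0 and 2 had p under 0.05, Cyp7a1 and Notum, a secreted inhibitor of Wnt ligands, at 7.05, 15.6, 8.47 and 25.7 CPM in dHEP and 4.59, 8.2, 2.95 and 7.83 CPM in FF tumors (log2 fold change 1.06 ± 0.39 (SE), adjusted p = 0.742).

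**Figure D4:**
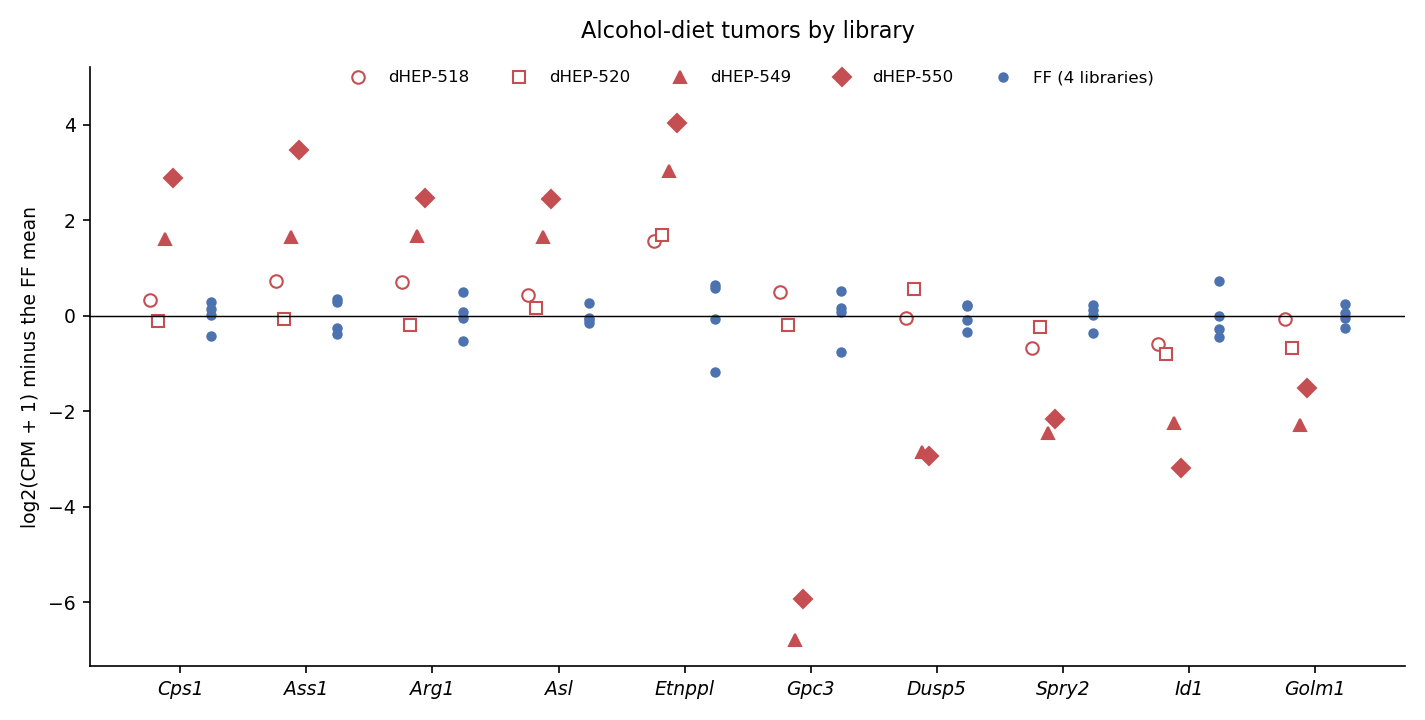
Log2(CPM + 1) of 10 genes in each alcohol-diet tumor minus the mean of the FF tumors; red symbols are the 4 dHEP tumors and blue points the 4 FF tumors. The periportal enzymes (Cps1 to Etnppl) lie high, and Gpc3, Dusp5, Spry2, Id1 and Golm1 low, in dHEP-549 and dHEP-550, while dHEP-518 and dHEP-520 lie near the FF values for most.

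Several tumor markers and growth factor signalling genes were low in dHEP-549 and dHEP-550, but the summed tumor markers were far below the FF range in dHEP-549 only. They summed to 1402, 1874, 135 and 2104 CPM in the dHEP tumors and to 1436, 1685, 1549 and 2099 CPM in the FF tumors. The trefoil peptide Tff3 was among those high in dHEP-550, at 97.5, 5.46, 8.98 and 787 CPM in dHEP and 35.1, 17.5, 6.35 and 65.1 CPM in FF tumors. Of 19 oncofetal and tumor markers, 15 had log2 fold changes below 0 and 4 had p under 0.05, all lower in dHEP, with a median of -0.87. Spink1, a trypsin inhibitor raised in liver cancers, stood at 16.97, 1.87, 0 and 0.532 CPM in dHEP and 18.1, 18.98, 54.9 and 29.9 CPM in FF tumors; dHEP-518 lay just below FF-503 (log2 fold change -3.26 ± 0.93 (SE), adjusted p = 0.668). Golm1, a Golgi protein of liver cancers, stood at 112, 72.7, 23.2 and 40.4 CPM in dHEP and 97.3, 139, 113 and 121 CPM in FF tumors (log2 fold change -1.13 ± 0.49 (SE), adjusted p = 0.782). Spry2, a feedback inhibitor of receptor tyrosine kinase signalling, stood at 3.15, 4.6, 0.203 and 0.466 CPM in dHEP and 4.15, 5.64, 6.74 and 6.13 CPM in FF tumors (log2 fold change -1.38 ± 0.46 (SE), adjusted p = 0.687). Dusp5, an ERK phosphatase, stood at 34.02, 51.9, 3.99 and 3.72 CPM in dHEP and 40.6, 32.8, 40.8 and 27.6 CPM in FF tumors. Tumors dHEP-549 and dHEP-550 lay below every FF tumor for Dusp5, and dHEP-520 lay above them. Of 18 such MAPK feedback genes, 2 had p under 0.05, both lower in dHEP, and the median of -0.37 became 0.199 without those 2 tumors. Without them the tumor markers gave 0 members with p under 0.05 and a median of -0.167, and without dHEP-549 alone 1 member. In non-tumor liver on alcohol, 7 of 15 tumor markers were lower in dHEP at p under 0.05 (6.07% of all genes were), with a median of -0.94. Their median in chow tumors was -0.97, with 0 at that p. MAPK feedback genes gave 7 of 16 lower in non-tumor liver, with a median of -0.48. In chow tumors they gave 0 lower and 1 higher, with a median of -0.23.

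Cell cycle genes gave little separation. Of 30, 28 had log2 fold changes above 0 with a median of 0.24, and 1 had p under 0.05, the replication licensing inhibitor Gmnn, at 5.05, 5.61, 6.28 and 12.2 CPM in dHEP and 4.51, 5.2, 3.24 and 3.86 CPM in FF tumors (log2 fold change 0.61 ± 0.26 (SE), adjusted p = 0.782). Tumor dHEP-550 held the highest value. Without dHEP-550 the list's median was -0.155 and 11 of 30 were above 0, and without FF-595 15 were and the median was -0.0103.

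In the sterol pathway, 1 of 25 genes had p under 0.05 and was lower in dHEP (3.63% of all genes were), which is close to that share. Insig2, which retains the SREBP complex in the ER, stood at 109.7, 114, 53.9 and 61.8 CPM in dHEP and 219, 129, 127 and 129 CPM in FF tumors, without overlap and with FF-503 far above the others (log2 fold change -0.86 ± 0.35 (SE), adjusted p = 0.782). Its p was not under 0.05 without FF-503, dHEP-549 or dHEP-550. Insig2 ran against most of the list, of which 20 genes had log2 fold changes above 0 and 5 below. The median of the list was 0.19. The transcription factors Srebf1 and Srebf2 stood at 0.32 (adjusted p = 0.963) and -0.17 (adjusted p = 0.974), the sterol reductase Dhcr7 at 0.065 (adjusted p = 0.992) and the protease Casp2 at 0.086 (adjusted p = 0.991). Outside that list, perilipin 5 (Plin5), which couples lipid droplets to mitochondria, stood at 16.97, 31.3, 71.2 and 51.5 CPM in dHEP and 13.8, 15.98, 12.4 and 22.2 CPM in FF tumors (log2 fold change 1.20 ± 0.36 (SE), adjusted p = 0.668).

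Of 18 iron-handling genes, 9 were above 0 and 9 below, with a median of 0.0083. With p under 0.05, Tmprss6, the protease that restrains hepcidin, was higher (log2 fold change 0.47, adjusted p = 0.782), and Id1, Smad7 and Atoh8 were lower. Id1, an inhibitor of bHLH factors that bone morphogenetic protein induces, stood at 24.9, 21.6, 7.23 and 3.26 CPM in dHEP and 31.2, 37.8, 63.3 and 27.8 CPM in FF tumors, without overlap and lowest in dHEP-549 and dHEP-550 (log2 fold change -1.70 ± 0.53 (SE), adjusted p = 0.674). Smad7, the feedback inhibitor, and Atoh8 had log2 fold changes of -0.86 (adjusted p = 0.762) and -1.25 (adjusted p = 0.782). Of 22 interferon-response genes, 19 were below 0 and 4 had p under 0.05, all lower in dHEP, with a median of -0.39. Isg15, a ubiquitin-like modifier, stood at 4.14, 7.19, 3.44 and 4.06 CPM in dHEP and 6.13, 11.1, 11.3 and 10.9 CPM in FF tumors; dHEP-520 exceeded FF-503 (log2 fold change -0.93 ± 0.33 (SE), adjusted p = 0.729). The other 3 were the antiviral Oas1a (-1.07), Ifi44 (-1.13) and Xaf1 (-0.86), given as log2 fold changes. Summed Kupffer cell markers ran from 83.8 CPM in dHEP-550 to 485 CPM in dHEP-520, against 162 to 341 CPM in the FF tumors, and their part in the interferon result was not tested. The interferon count was 1 without dHEP-550, 2 without FF-523 or dHEP-549, 10 without dHEP-520 and 0 without dHEP-549 and dHEP-550. In non-tumor liver on alcohol all 22 were below 0, 6 of them with p under 0.05 (6.07% of all genes were lower at that p), with a median of -0.54. In chow tumors 20 were below 0, 1 of them with such a p, with a median of -0.38.

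Circadian clock genes differed in both directions. The list was added after the value of Ciart had been seen, and 4 of its 17 genes had p under 0.05, of which 3 were higher in dHEP. Ciart, a circadian repressor, stood at 24, 15.5, 34.1 and 26.7 CPM in dHEP and 1.17, 6.45, 9.13 and 7.46 CPM in FF tumors, without overlap (log2 fold change 2.05 ± 0.51 (SE), adjusted p = 0.645). Arntl (BMAL1), the core activator, stood at 0.745, 2.23, 0.946 and 2.79 CPM in dHEP and 21.9, 4.84, 5.03 and 1.93 CPM in FF tumors, where FF-595 lay within the dHEP range (log2 fold change -1.46 ± 0.63 (SE), adjusted p = 0.782). The repressor Per1 and the output factor Hlf, both higher in dHEP at p under 0.05, had log2 fold changes of 0.71 and 0.64. Tef, a clock-driven output factor, stood at 178, 211, 199 and 246 CPM in dHEP and 36.98, 127, 160.0 and 132 CPM in FF tumors, without overlap (log2 fold change 1.04 ± 0.57 (SE), adjusted p = 0.827). FF-503 was the highest for Arntl and the lowest for Ciart and Tef. In the non-tumor liver of the same mice Ciart did not overlap either, at 17.7 to 36.1 CPM in dHEP and 6.54 to 14.2 CPM in FF mice. The time of day of collection is not in the labels, and its part in these values was not tested.

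Of 18 acute phase proteins, 12 had log2 fold changes below 0 and 6 above, with a median of -0.38. Lipocalin 2 (Lcn2), also IL-17-induced, had the lowest log2 fold change and stood at 329.6, 598, 196 and 53.3 CPM in dHEP and 706, 1417, 847 and 523.1 CPM in FF tumors, where dHEP-520 exceeded FF-595 (log2 fold change -1.93 ± 1.10 (SE), adjusted p = 0.84). C-reactive protein (Crp) stood at 81.2, 139, 199 and 189 CPM in dHEP and 81.8, 78.7, 58.1 and 96.5 CPM in FF tumors (log2 fold change 0.88 ± 0.29 (SE), adjusted p = 0.687) and was the 1 member with p under 0.05. The 3 members without overlap, all lower in dHEP, were Itih4 and the fibrinogen chains Fga and Fgg, at log2 fold changes of -0.55 (adjusted p = 0.795), -0.70 (adjusted p = 0.788) and -0.64 (adjusted p = 0.788).

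Whether the genotype difference in alcohol tumors differed from that in chow tumors was tested as an interaction. Limma called 0 of 13205 genes (0%), with a smallest adjusted p of 0.642, and 653 (4.95%) had an unadjusted p under 0.05, 343 (2.6%) of them with a lower and 310 (2.35%) with a higher dHEP-minus-FF difference on alcohol. Of the 28 unfolded protein response genes, 14 had such a p with the difference below 0 and 1 above, and the median difference was -0.83. Dnajb9 had the smallest p of the genes named by the rule for this test, with log2 fold changes of -0.78 on alcohol and 0.89 on chow (difference -1.67 ± 0.32 (SE), adjusted p = 0.642). Hspa5 stood at -0.76 on alcohol and 0.86 on chow (difference -1.62 ± 0.38, adjusted p = 0.642). In the chow tumors 5 of the 28 were higher in dHEP at p under 0.05 (1.01% of all genes were) and 1 lower (1.86%), with a median of 0.34. Contractile genes gave 7 of 14 with the difference below 0 at that p, and Acta2 stood at -1.68 on alcohol and 0.47 on chow (difference -2.15 ± 0.46, adjusted p = 0.642). Abhd15 and Rrbp1 were the other genes of smallest p, with differences of 1.63 and -1.17. For Il17ra the difference was -0.41 (adjusted p = 1).

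The same test against the non-tumor liver of the 8 alcohol-fed mice called 0 of 13056 genes (0%), with a smallest adjusted p of 1, and 279 (2.14%) had an unadjusted p under 0.05, 118 (0.904%) below 0 and 161 (1.23%) above. Taking the animal as a block gave 422 such genes and again 0 called. Contractile genes gave 4 of 12 with a lower difference in tumors at that p, and Myh11 had the smallest p of the named genes, at -1.19 in tumors and 0.14 in non-tumor liver (difference -1.34 ± 0.32 (SE), adjusted p = 1). Unfolded protein response genes gave 0 of 28, and in non-tumor liver 11 of them were lower in dHEP at p under 0.05 (6.07% of all genes were) and 0 higher (2.44%), with a median of -0.39. Hspa5 stood at -0.76 in tumors and -0.70 in non-tumor liver (difference -0.062 ± 0.44, adjusted p = 1). The other 2 named genes of smallest p were Bdh2, a cytosolic hydroxybutyrate dehydrogenase, with a difference of -1.65 (adjusted p = 1), and the vomeronasal receptor Vmn2r3, with -3.07 (adjusted p = 1). Some leading genes of the tumors did not overlap in non-tumor liver either. Hsd3b2, Sec14l4, Ciart and Slc41a2 had log2 fold changes of 0.80, 0.56, 1.12 and -1.04 there, beside 1.31, 0.92, 2.05 and -1.03 in tumors. Myh11 and Glt8d1, lower in dHEP tumors, stood at 0.14 and 0.17 there. Limma called 0 of 12651 genes in non-tumor liver.

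**Figure D5:**
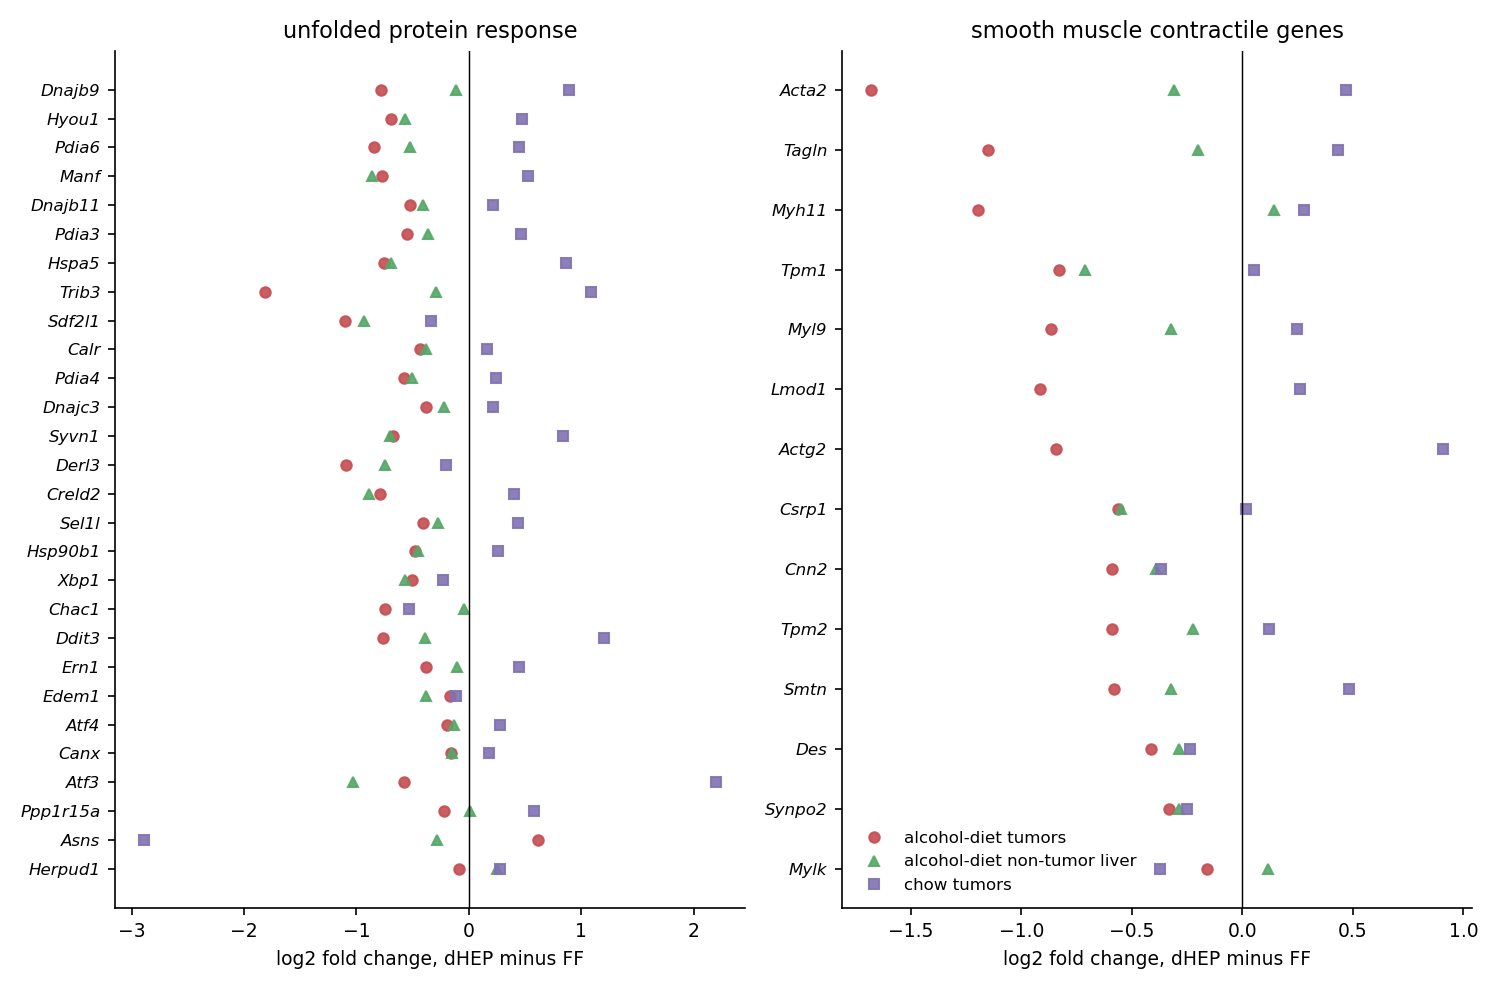
Log2 fold change, dHEP minus FF, of the tested unfolded protein response genes (left) and contractile genes (right) in alcohol-diet tumors (circles), alcohol-diet non-tumor liver (triangles) and chow tumors (squares), genes ordered by p in alcohol-diet tumors. Hspa5 lies at -0.76, -0.70 and 0.86, and Acta2 at -1.68, -0.31 and 0.47.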

How the data were processed

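Poly(A) RNA from 28 mouse liver samples was sequenced; the labels also name a stranded total RNA kit. Reads were aligned and quantified with STAR 2.5.1a, RSEM 1.3.0 and GRCm38, per the submitters' processing notes. The authors deposited CPM values per gene, which sum to 1000000 per library. Of 22187 genes, 21653 had a GENCODE vM21 symbol. Read totals estimated from the smallest CPM step were 9.57 to 17.8 M per library. Only 84.8 to 86.9% of values came out as whole reads (within 0.1 read), so no count model was used.

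Genes with at least 1 CPM in 3 fitted libraries were tested on log2(CPM + 1) with limma 3.58.1 (R 4.3.3, trended empirical Bayes, Benjamini-Hochberg adjustment). All 14 tumor libraries (4 dHEP alcohol, 4 FF alcohol, 3 per genotype on chow) entered 1 fit; the tissue interaction used the 16 alcohol libraries and the non-tumor contrast the 14 non-tumor libraries. Fold changes are on the log2(CPM + 1) scale, which understates changes of low genes. The fit was tested on simulated data. Each library is 1 animal by its number.

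Named genes are 6 genes chosen for the study (Il17ra, Lcn2, Srebf1, Srebf2, Dhcr7 and Casp2), the 15 higher and 15 lower of smallest p without overlap and with at least 5 CPM in the higher group, up to 4 per list, the 3 of smallest p per interaction, and Afp and Gpc3. Others (such as Ccl20, Steap4, Oat, Cps1, Dusp5, Tef, Fga, Fgg and members that complete a count) were named after their values were seen. Members and lists were chosen with earlier results of these data known. Alternatives were another pseudocount, filter and scaling, sample weights, fewer samples and left-out libraries. Animal numbers pair tumor and non-tumor liver of the same mouse; deviations of the pairs correlated at -0.11 to 0.36. Cebpd, H19, Tf, C5 and Trac, on the lists, are not analysed here, and some genes under the naming rule or on the lists are not reported here.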

Additional observations from a re-analysis of the deposited data

Results flagged for a closer look

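In 13 of 232 groups of 4 tumors checked (5.60%), the highest or lowest library stood apart from the other 3 by more than Dixon's critical value, where chance gives about 1 in 20. Among the dHEP tumors, Sord was lowest in dHEP-518 at 668.8 CPM, Ddit3 highest in dHEP-520 at 27.05 CPM and Dhcr7 highest in dHEP-550 at 157.1 CPM. Of the FF tumors, FF-503 was lowest for Sema5a (2.886 CPM), Slc46a3 (6.494 CPM), Isg15 (6.133 CPM) and Tef (36.98 CPM) and highest for Insig2 (219.0 CPM). FF-581 was lowest for Slc10a1 (9.919 CPM), Cyp27a1 (26.38 CPM) and Hsp90b1 (901.3 CPM). FF-595 was lowest for Trib3 (18.38 CPM) and highest for Atf4 (128.3 CPM).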

How the results depend on the processing

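Limma called 0 genes between dHEP and FF alcohol-diet tumors under all 16 alternatives, with smallest adjusted p from 0.133 to 1, so the counts rest on unadjusted p. Of 116 named genes, 108 kept their sign under all 16. Many were named because their groups did not overlap, and leaving out libraries cannot turn the sign of such a gene. No paired analysis was possible because dHEP and FF mice share no animal number, except for the tissue interaction, where taking the animal as a replicate block gave 422 genes with p under 0.05, against 279 without it. That interaction gave 527 such genes with no filter on low values, 178 with a mean of at least 5 CPM and 498 with sample quality weights. Quality weights gave 1482 genes in the genotype comparison, 1003 of them lower in dHEP, and median-of-ratios scaling gave 344 genes higher without overlap. Without dHEP-520 and dHEP-549, 2398 genes did not overlap, 1946 of them lower. Without dHEP-549 and dHEP-550, 291 genes had p under 0.05 (112 higher, 179 lower) and 1279 did not overlap, 698 of them lower; smaller groups overlap less often by construction.

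Leaving out 1 alcohol-diet tumor gave 519 (without dHEP-550) to 1336 (without dHEP-520) genes with p under 0.05, 211 to 768 higher and 271 to 1025 lower, and 644 to 1578 without overlap. The diet interaction gave 0 to 2 called genes and 507 to 992 with p under 0.05; the 2, Pcdha11 (adjusted p = 0.035 by limma) and Dzip1l (adjusted p = 0.0422), were called without the chow tumor dHEP-164. The tissue interaction gave 187 to 647 with 1 animal left out.

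Signs turned for 8 genes. With 1 tumor left out, Dhcr7 ran from -0.324 (without dHEP-550) to 0.274, Casp2 from -0.0133 to 0.164, Il17rc from -0.0279 to 0.17, Mylk from -0.425 to 0.173 and Tff3 from -0.366 (without dHEP-550) to 1.94. Dhcr7 stood at -0.0317 with quality weights. Without dHEP-549 and dHEP-550, Dhcr7 stood at -0.39, Dusp5 at 0.258, Gpc3 at 0.159, Mylk at 0.315 and Srebf1 at -0.0251, and Srebf1 stood at -0.0152 without dHEP-520 and dHEP-549. The cause was not tested. Values under about 1 CPM rest on few reads, so low genes such as Actg2 are the least certain.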
